A study of Danio rerio with 46 samples.

Results

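Heat shock proteins and chaperones were followed through zebrafish trunks and gonads after an early period at high temperature. The genes were taken by name: every entry of the array table whose symbol starts with hsp, with dnaj, or with cct followed by a digit from 2 to 8. This gave 84 of 31475 entries, made up of 9 small heat shock proteins, 12 HSP70 and HSP110 genes, 4 HSP90 genes, the HSP60 and HSP10 pair of 2, J-domain proteins of class A (7), B (11) and C (28), 7 subunits of the CCT chaperonin, and 4 other names. Of the 4 others, hspg2 is the matrix proteoglycan perlecan, and hspbp1 and hspbap1 are binding partners of heat shock proteins. Hspb11 was set apart because the human protein of that name works in intraflagellar transport. Whether zebrafish hspb11 is a small heat shock protein, as its symbol would have it, was not checked. The counts of small heat shock proteins below leave it out, and it passed in none of the comparisons reported. Of the 84 names, 75 are current symbols, 5 are older ones (dnaja1l is dnaja1, dnaja2 is dnaja2a, dnaja2l is dnaja2b, dnajc11 is dnajc11a and dnajc3 is dnajc3a), and 4 (dnaja4, dnajb9, dnajc13 and hsp70) matched no gene table.

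The fish were kept at 36 °C (heat-exposed) or 28 °C (control) between 18 and 32 days post fertilization (dpf), and every fish then lived at 28 °C. RNA was measured on 46 single-colour arrays, 1 per sample. Juvenile trunks, taken at 37 dpf from fish of unknown sex, came from 10 heat-exposed and 8 control fish. The trunk is the whole body region and not the gonad alone. Adult gonads, taken at 90 dpf, were 10 heat-exposed and 10 control testes, and 4 heat-exposed and 4 control ovaries. The study's design text speaks of 10 juveniles in each temperature group. No sample was taken during the heat itself, so all values describe fish that had been back at 28 °C for at least the days between 32 and 37 dpf.

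Chaperones bind proteins that are unfolded or still folding. HSP70 proteins hold exposed stretches of a chain in cycles driven by ATP, J-domain proteins bring them their clients and start the cycle, and HSP110 proteins exchange the nucleotide that ends it. HSP90 acts late on kinases and hormone receptors, and CCT folds actin and tubulin in a closed chamber. HSP60 with HSP10 folds proteins of the mitochondria, and small heat shock proteins keep damaged proteins soluble without ATP. In many animals a subset of these genes, led by hsp70 and hsp90aa1 forms, is switched on by heat shock factor 1 within minutes and falls again after the stress. Other members work in every cell without stress, and several are part of egg and sperm formation.

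Oocyte and spermatogenic markers separated the labelled ovaries and testes, with exceptions that touch the results below. Among the ovaries, the mean of 14 spermatogenic markers was 9.05, 12.31, 8.99 and 12.25 (log2 signal) in heat-exposed ovaries 1 to 4, against 8.40 to 9.05 in control ovaries. Heat-exposed ovaries 2 and 4 therefore lay near the testes (12.34 to 12.68 in both temperature groups) for these markers, although the mean of 16 oocyte markers was 12.40 to 13.84 in heat-exposed ovaries and 8.16 to 9.92 in all testes. In trunks, the mean of 16 oocyte markers was 6.44 to 9.25 in the heat-exposed group and 8.96 to 13.72 in the control group, with control trunks 2 and 4 the lowest of theirs at 8.96 and 9.04. Array correlations over all genes had a median of 0.948 to 0.960 within 5 groups and 0.821 within heat-exposed ovaries. Heat-exposed testis 10 correlated with its group at a median of 0.897. A signal in bulk tissue cannot tell fewer cells of a type from less RNA per cell. Near-identical copies, such as the hsp70 forms or hsp90aa1.1 and hsp90aa1.2, may share hybridization, so the value of 1 copy is uncertain by the others.

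The first comparison asked whether chaperone genes still differed in juvenile trunks days after the heat. The genes that define the heat shock response did not pass the test there. Hsp70l, a strongly heat-inducible HSP70 of zebrafish, had a lowest, median and highest signal of 9.18, 10.16 and 11.06 in heat-exposed trunks, against 7.90, 9.57 and 11.59 in control trunks. The control range enclosed the heat-exposed range, and the difference (heat-exposed minus control, log2, as for all heat differences below) was 0.62 ± 0.42 (SE, n = 10 and 8, limma adjusted p = 0.354). Another HSP70 form, hsp70.3, pointed the other way at −0.89 ± 0.54 (adjusted p = 0.295), below the control mean in 8 of 10 heat-exposed trunks. The entry named hsp70 differed by 0.13 (adjusted p = 0.844). Hsp90aa1.1, the HSP90 that zebrafish muscle needs to assemble myosin, had 13.77, 14.19 and 14.51 in heat-exposed trunks and 13.69, 14.27 and 14.34 in control trunks. These ranges nearly coincide, with a difference of −0.01 and a 95% confidence interval from −0.26 to 0.25.

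None of the other panel genes but cct2 passed. Differences were 0.12 for hsp90aa1.2, −0.08 for hsp90ab1, the constitutive cytosolic HSP90, 0.10 for hspa8, the constitutive HSP70, and −0.12 for the HSP110 gene hspa4a. In the endoplasmic reticulum (ER), hspa5 (BiP) differed by −0.10 and hsp90b1 (GRP94) by 0.04. In mitochondria, hspd1 (HSP60) differed by 0.00, hspe1 (HSP10) by −0.03 and hspa9 (mortalin) by −0.21. The J-domain genes dnajb1a (−0.10), dnajb1b (−0.38) and dnaja1l (−0.25) and the small heat shock proteins hspb1 (0.24) and hspb8 (−0.10) did not pass either. Without adjustment, the 95% confidence intervals of dnajb1b (−0.73 to −0.03), hspa9 (−0.42 to −0.01), hspb1 (0.05 to 0.42) and cct5 (0.02 to 0.40) lay on 1 side of 0. Dnajb1b and hspa9 were below the control mean in 9 of 10 heat-exposed trunks. Hspb1 was above it in 10 of 10 and cct5 in 9 of 10. The adjusted p was between 0.0793 and 0.982 across the whole panel other than cct2.

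**Figure D1:**
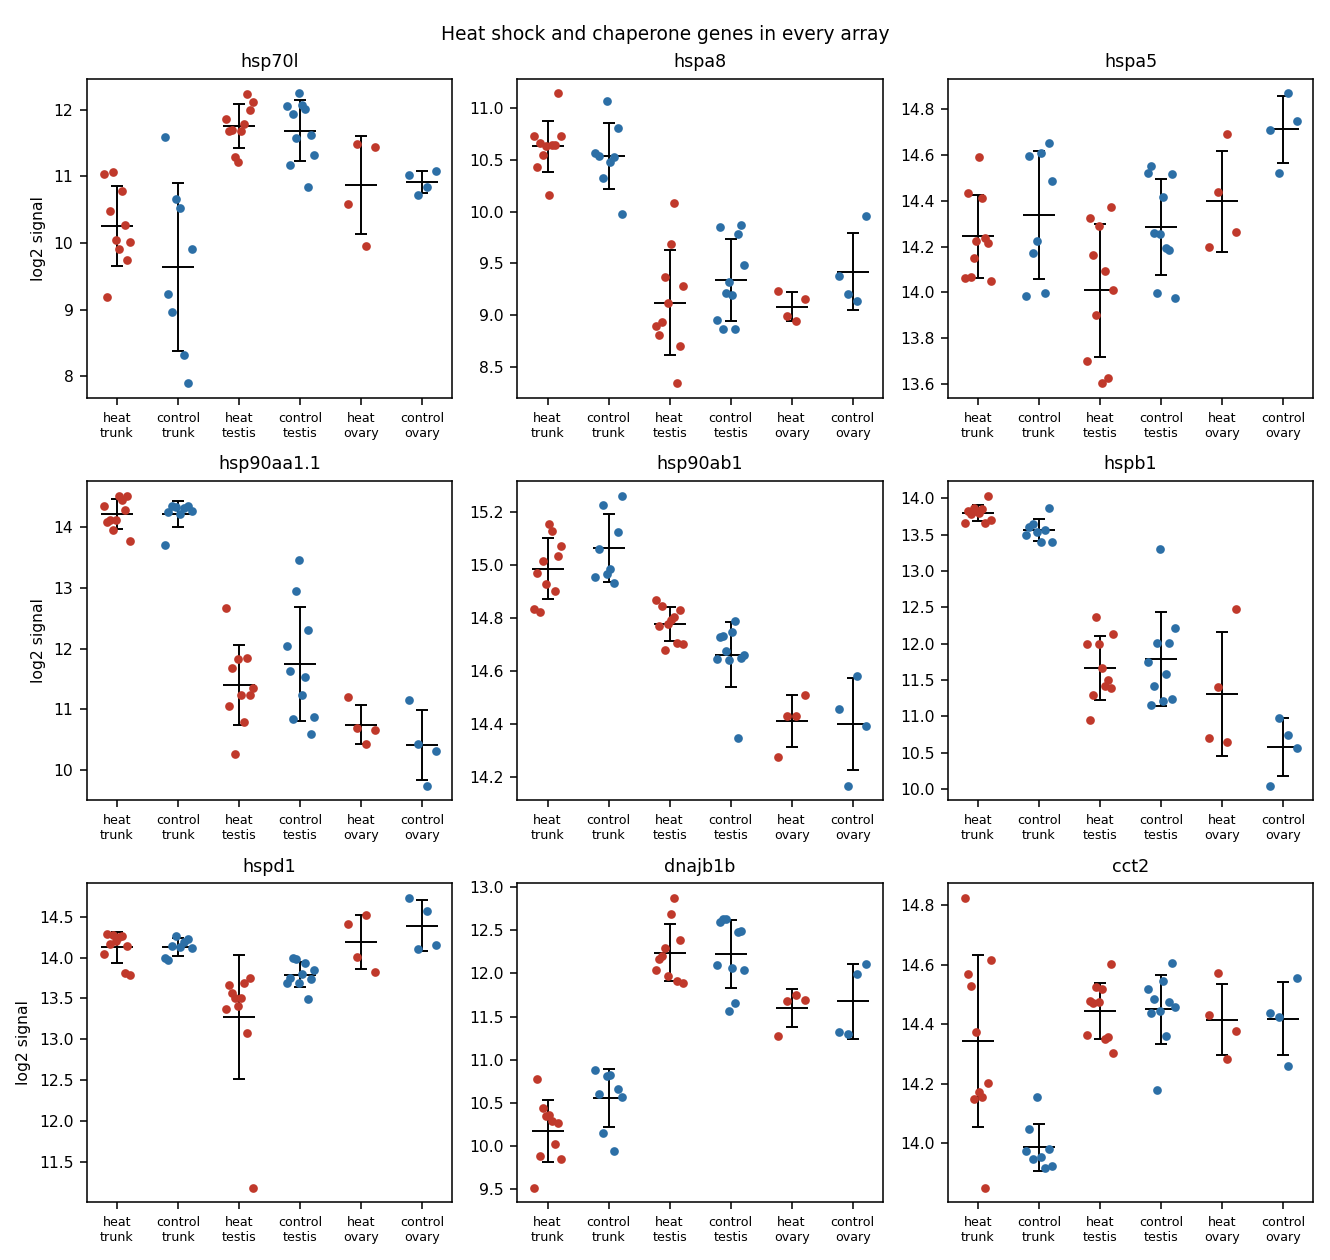
Log2 signal (vertical axis, a separate scale for each gene) of 9 chaperone genes in every array of the 6 groups; each point is 1 array, bars are the mean ± SD, and heat-exposed groups are red and control groups blue. Hsp70l spans 7.90 to 11.59 in control trunks, a wider range than the 9.18 to 11.06 of heat-exposed trunks, and hspd1 has 1 low array at 11.18 among heat-exposed testes.

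Of the 84 genes, 6 passed in the trunk (adjusted p under 0.05 over all 31475 entries in limma): 5 were higher and 1 was lower in heat-exposed trunks. Over all entries 8.59% were higher and 5.96% lower, so the chaperone genes were not called more often than the table as a whole. Their median difference of 0.04 equalled that of all entries, 0.04, and 35 of 84 lay below 0, against 44.6% of all entries. The 6 genes were 1 HSP70 relative, 1 class B and 3 class C J-domain genes, and 1 CCT subunit. Small heat shock proteins (0 of 9), HSP90 (0 of 4), HSP60 and HSP10 (0 of 2) and class A J-domain genes (0 of 7) had none.

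Hspa12a, a distant HSP70 relative, was the only 1 of the 84 whose groups did not overlap (1.19%, against 1.12% of all entries). Its lowest, median and highest signals were 8.34, 8.56 and 8.92 in heat-exposed trunks, against 7.69, 8.06 and 8.26 in control trunks. All 10 heat-exposed trunks lay above every control trunk, and it rose by 0.55 ± 0.11 (SE; adjusted p = 0.0032), or 1.47-fold. Dnajb13, whose protein is part of the axoneme of sperm tails in mammals, had 6.27, 7.42 and 8.07 in heat-exposed trunks and 5.83, 6.34 and 6.64 in control trunks. In 8 of 10 heat-exposed trunks it was above the whole control range, and it rose by 1.01 ± 0.21 (adjusted p = 0.0037). Beside it, 8 of 14 spermatogenic markers were higher in heat-exposed trunks (8.59% of all entries) and 0 lower. Their list means were 8.0 to 9.84 in the heat-exposed group and 7.56 to 8.07 in the control group. Of 8 testis somatic markers, 0 were higher and 1 was lower, with a median difference of −0.26. Which cells carry the spermatogenic markers in trunks, and their part in the dnajb13 result, were not tested.

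Dnajc16 had 9.73, 10.33 and 10.89 in heat-exposed trunks, against 9.09, 9.48 and 10.11 in control trunks. All 10 heat-exposed arrays were above the control mean although the ranges overlapped, and it rose by 0.76 ± 0.18 (adjusted p = 0.0093). Dnajc5b, a relative of the cysteine string proteins that guard vesicle fusion at nerve endings, had 6.06, 9.35 and 10.95 in heat-exposed trunks and 5.56, 7.29 and 9.06 in control trunks. It had the largest rise among the 84, 1.62 ± 0.51 (adjusted p = 0.0388, above the control mean in 9 of 10). Its relative dnajc5aa differed by 1.05 (adjusted p = 0.0706), and dnajc5ga by −0.52 (adjusted p = 0.0502). Neural markers and the spermatogenic markers given above both moved beside dnajc5b. Of the neural markers, 10 of 13 were higher in heat-exposed trunks (8.59% of all entries). Their list means were 10.15 to 12.22 in the heat-exposed group and 9.30 to 10.60 in the control group. The part of either kind of marker in the dnajc5b result was not tested.

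Cct2, a subunit of the CCT ring, had 13.85, 14.29 and 14.82 in heat-exposed trunks, against 13.92, 13.96 and 14.16 in control trunks. The control trunks were close together and the heat-exposed ones wide apart, and the rise of 0.36 ± 0.12 was just past the threshold (adjusted p = 0.0498). All 7 CCT subunits lay above 0 in the trunk (differences from 0.03 for cct8 to 0.36 for cct2, with 0.21 for cct5, median 0.18), but only cct2 passed. Dnajc18 had 10.17, 10.42 and 10.99 in heat-exposed trunks and 10.70, 10.88 and 10.96 in control trunks. It fell by 0.37 on the log2 scale (SE 0.12, adjusted p = 0.0435), with 9 of 10 heat-exposed trunks below the control mean.

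**Figure D2:**
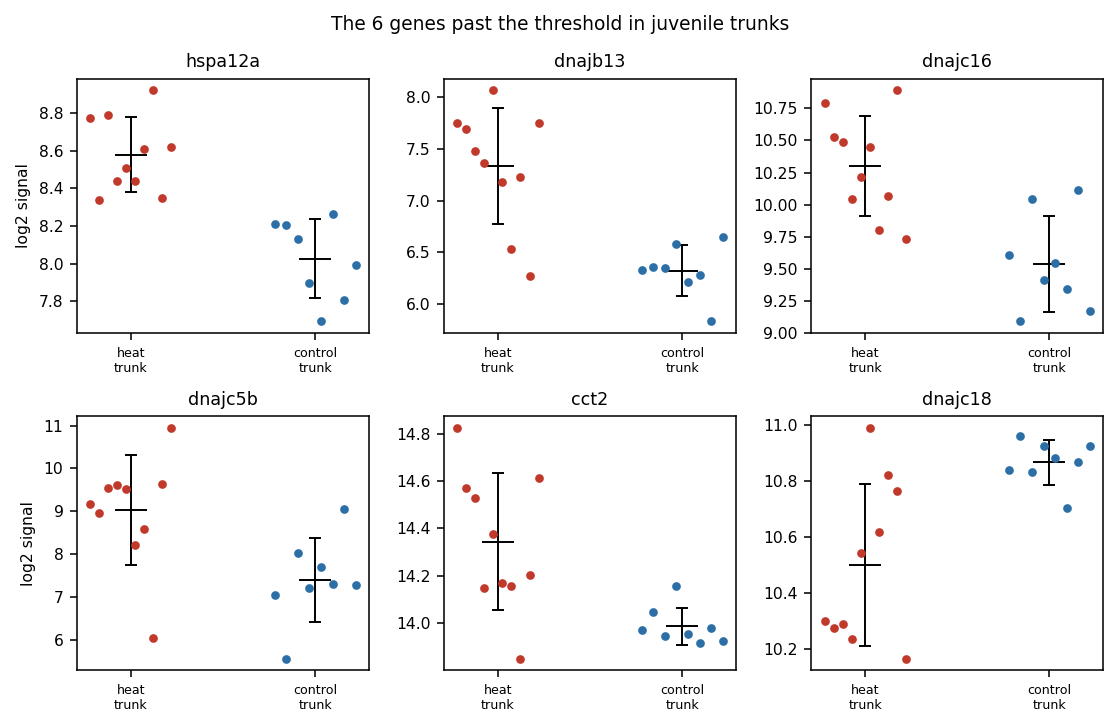
Log2 signal of the 6 genes that passed in juvenile trunks, with 10 heat-exposed (red) and 8 control (blue) arrays as points and the mean ± SD as bars; each gene has its own scale. Hspa12a separates the groups fully, with 8.34 as the lowest heat-exposed and 8.26 as the highest control value, and the other 5 overlap.

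The calls of hspa12a, dnajb13 and dnajc16 were kept in all 18 fits that left out 1 trunk. Those of cct2, dnajc18 and dnajc5b were lost in 14, 13 and 13 of them. Only 3 calls were left when any of control trunks 4, 5 and 8 was dropped, and likewise for heat-exposed trunks 2 and 10. Heat-exposed trunks 1, 2 and 10 had stood apart on principal components in an earlier analysis of these data. Dropping them together also left 3 calls (9.1% of all entries). With the mean of the oocyte markers as a covariate, 0 of 84 passed (smallest adjusted p = 0.0757), while 177 of 31475 entries did. All 16 oocyte markers were lower in heat-exposed trunks, so this mean and the temperature are partly the same variable.

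Other genes of the chaperone system, 61 entries for cochaperones, heat shock factors, prefoldins and protein disulfide isomerases, changed as rarely in the trunk. Of these, 1 passed as higher (8.59% of all entries) and 4 as lower (5.96% of all entries). The HSP90 cochaperone gene chordc1 rose by 0.43. The protein disulfide isomerase gene p4hb fell by 0.69, the HSP90 immunophilin gene fkbp5, a known target of glucocorticoids, by 0.56, the HSP70 cochaperone gene st13 by 0.37 and ttc1 by 0.36 on the log2 scale (adjusted p from 0.00943 to 0.0408). Hsf1, the factor that switches on the heat shock genes, differed by −0.35 (adjusted p = 0.175).

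The second comparison asked whether adult testes kept a trace of the early heat. At 90 dpf, none of the 84 genes passed in limma (0 of 84, against 0.0635% or 20 of all entries), and none had groups that did not overlap (0 of 84, against 0.0445% of all entries). The differences leaned downwards: 56 of 84 lay below 0, against 46.6% of all entries, with a median of −0.07 for the chaperone genes and 0.02 for all entries. At an unadjusted p under 0.05, 12 of 84 were lower (5.36% of all entries) and 0 were higher (6.31% of all entries). Each of these differences was small, and no single gene was past the threshold.

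**Figure D3:**
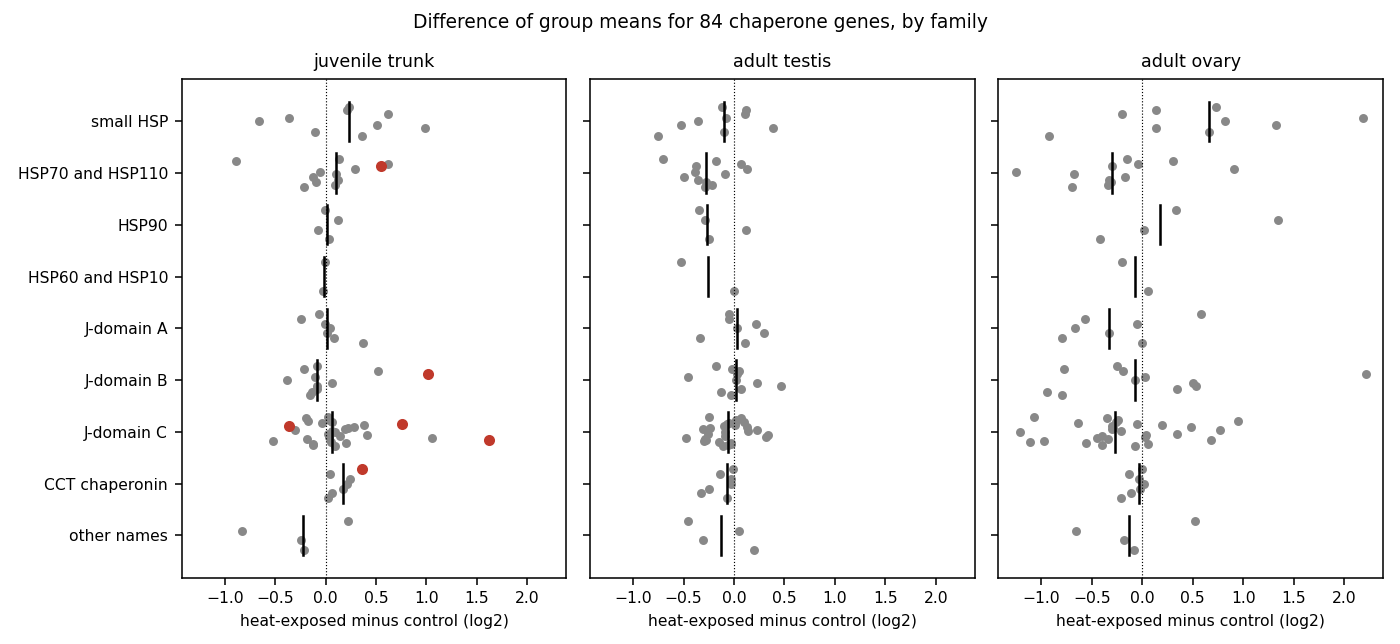
Difference of group means, heat-exposed minus control (log2, horizontal axis), for the 84 genes by family in trunks, testes and ovaries; each point is 1 gene, black bars are family medians, and red points passed at an adjusted p under 0.05. The HSP70 and HSP110 family has a median of −0.28 in testes and 0.10 in trunks, and the widest spread is in ovaries, where 2 genes exceed 2.

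The HSP70 and HSP110 genes held much of it. Of 12, 10 lay below 0 and 6 had an unadjusted p under 0.05, with a family median of −0.28. Hspa4a, an HSP110 that recharges HSP70, had the smallest p of all 84. Its lowest, median and highest signals were 11.58, 12.09 and 12.43 in heat-exposed testes, against 12.30, 12.51 and 12.89 in control testes. Every heat-exposed testis was below the control mean although the ranges overlapped, and the difference was −0.50 ± 0.12 (SE, n = 10 each, adjusted p = 0.0953, range 0.0315 to 0.182 over the settings tried). The entry named hsp70 had 9.37, 10.54 and 11.34 in heat-exposed testes and 10.62, 11.17 and 11.83 in control testes. It lay below the control mean in 9 of 10 heat-exposed testes, with a difference of −0.71 ± 0.21 (adjusted p = 0.202), and −0.58 without heat-exposed testis 10.

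Further members of the family had smaller differences. They were −0.36 for hspa4b, a second HSP110 (−0.22 and an unadjusted p of 0.0681 without heat-exposed testis 10, which leaves 5 of the 6 genes under 0.05), −0.28 for hspa5, −0.28 for hspa9, −0.37 for hspa12a and −0.39 for hspa13, an HSP70 of the ER. Hspa8 differed by −0.22. The exceptions were hsp70l (0.07; 95% confidence interval −0.30 to 0.44) and hspa12b (0.13). The hsp70l signals were 11.21, 11.74 and 12.23 in heat-exposed testes, against 10.84, 11.78 and 12.24 in control testes, and these ranges almost coincide.

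Among the J-domain partners, dnajb1a, the class B protein that works with cytosolic HSP70 and HSP110, had 10.01, 11.20 and 11.51 in heat-exposed testes and 11.33, 11.58 and 12.01 in control testes. All 10 heat-exposed testes were below the control mean, and the difference was −0.45 ± 0.16 (adjusted p = 0.287). Without heat-exposed testis 10 it was −0.33. Its copy dnajb1b differed by 0.02 and dnaja1l by −0.05. Dnajc5aa had a difference of −0.48 ± 0.17 (adjusted p = 0.28), below the control mean in 9 of 10 heat-exposed testes.

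The chaperonins leaned the same way. All 7 CCT subunits lay below 0, from −0.01 for cct2 to −0.33 for cct7. Without heat-exposed testis 10, cct2 was at 0.01, cct6a at −0.10 (−0.24 with it) and cct7 still at −0.33. Cct7 had 10.44, 10.72 and 11.15 in heat-exposed testes, against 10.82, 11.09 and 11.34 in control testes, with 9 of 10 below the control mean (adjusted p = 0.232). Cct5 differed by −0.03 and cct8 by −0.06. In mitochondria, hspd1 was below the control mean in 10 of 10 heat-exposed testes, with 11.18, 13.51 and 13.76 against 13.49, 13.77 and 14.00 in control testes. Its difference of −0.52 ± 0.24 (adjusted p = 0.406) was −0.29 without heat-exposed testis 10. Its partner hspe1 differed by 0.00, and by −0.17 without that testis.

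Of the HSP90 genes, hsp90aa1.2 was below the control mean in 10 of 10 heat-exposed testes (difference −0.29 ± 0.12, adjusted p = 0.374). Without heat-exposed testis 10 its difference was −0.20. Hsp90aa1.1 differed by −0.35 and hsp90b1 by −0.24. Hsp90ab1 went the other way (0.12, adjusted p = 0.611). Small heat shock proteins ranged from −0.75 for hspb9 to 0.39 for hspb7, with −0.12 for hspb1 and −0.10 for hspb8. Class A and B J-domain genes had medians of 0.04 and 0.02.

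**Figure D4:**
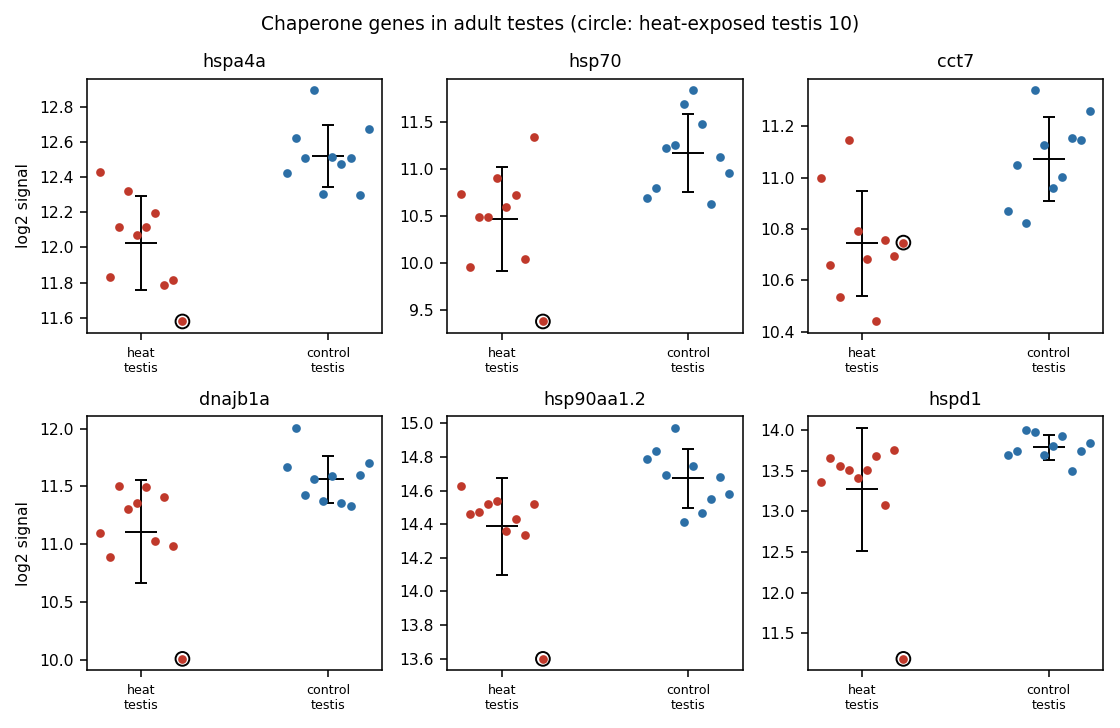
Log2 signal of 6 genes in 10 heat-exposed (red) and 10 control (blue) adult testes, with the mean ± SD as bars and a scale for each gene; the circle marks heat-exposed testis 10. The heat-exposed points lie mostly below the control mean in all 6, the ranges overlap, and testis 10 is the lowest point in 5 of the 6.

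Heat-exposed testis 10 was the lowest or highest array of its group for 42 of the 84 genes. Without it, 50 of 84 lay below 0 (47.9% of all entries), 13 had an unadjusted p under 0.05 and were lower (5.25% of all entries), 0 were higher, and 0 passed. The median was −0.08. All 15 skeletal muscle markers lay below 0 in heat-exposed testes, 0 of them past the threshold, with a median difference of −0.79 and a smallest adjusted p of 0.051. Their list mean was 9.45 ± 1.17 in heat-exposed and 10.39 ± 0.99 in control testes (SD, n = 10 each), with ranges of 8.20 to 11.55 and 8.50 to 11.53, a wider gap than the chaperone median of −0.07. Their part in the chaperone differences was not tested. Of the 61 other chaperone-system genes, 45 lay below 0 (46.6% of all entries) and 0 passed (0.0635% of all entries).

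The third comparison set heat-exposed against control ovaries, with 4 arrays each. None of the 84 genes passed in limma, and none of the 31475 entries did (0%). At an unadjusted p under 0.05, 2 of 84 were higher (5.78% of all entries) and 3 lower (4.82% of all entries). Below 0 lay 54 of 84, against 53.3% of all entries. In 3 of 84 genes the groups did not overlap (3.57%, against 5.98% of all entries): dnajb9, hsp90b1 and hspa13, all lower in heat-exposed ovaries. Without heat-exposed ovaries 2 and 4 they differed by −0.54, −0.20 and −0.29, against −0.80, −0.42 and −1.25 with all 4. All 3 were also lower in control testes than in control ovaries (−1.02, −1.09 and −2.98).

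The spread among heat-exposed ovaries was the main feature. Hspb2, a small heat shock protein best known from mammalian muscle, had 7.01, 10.16, 6.89 and 10.71 in heat-exposed ovaries 1 to 4, against 7.23, 5.96, 7.07 and 5.76 in control ovaries. Arrays 2 and 4 were far above every control and arrays 1 and 3 were inside the control range (difference 2.19 ± 0.92, adjusted p = 0.434). Hspa13 had 9.42, 7.58, 9.21 and 7.21 in heat-exposed ovaries, against 9.73, 9.60, 9.58 and 9.53 in control ovaries. Here arrays 2 and 4 were the low ones, and the difference was −1.25 ± 0.51 (adjusted p = 0.434).

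Dnajb13 had the same split, with 6.89, 11.26, 6.17 and 11.26 in heat-exposed ovaries and 6.90, 7.05, 6.59 and 6.17 in control ovaries. So had hsp90aa1.2, with 12.10, 14.53, 11.27 and 14.57 in heat-exposed ovaries, against 12.10, 11.20, 11.63 and 12.16 in control ovaries. These are the arrays that carry the spermatogenic markers given above. Hspb6 was unlike them, with 5.55, 7.46, 7.07 and 7.32 in heat-exposed ovaries and 5.27, 4.95, 6.53 and 5.37 in control ovaries, so that array 3 was high as well (difference 1.32 ± 0.51, adjusted p = 0.434). Dnajb9 (−0.80) and dnajc1 (−1.08), J-domain proteins of the ER, had the other 2 of the 5 smallest p-values, both with an adjusted p of 0.434.

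Most panel genes had smaller mean differences from the control ovaries. Hsp70l had 10.59, 11.48, 9.96 and 11.43 in heat-exposed ovaries and 11.01, 10.72, 10.84 and 11.08 in control ovaries (difference −0.05 ± 0.38). Differences were 0.33 for hsp90aa1.1, 0.01 for hsp90ab1, −0.34 for hspa8, −0.31 for hspa5, −0.17 for hspa4a, −0.20 for hspd1, 0.06 for hspe1, −0.08 for dnajb1b, 0.03 for dnajb1a and 0.00 for cct2. Cct5 differed by 0.02 and cct8 by −0.21. Larger differences that did not pass were −0.42 for hsp90b1, −0.57 for dnaja1l, −0.70 for hspa9, 0.73 for hspb1 and 0.66 for hspb8 (adjusted p from 0.434 to 0.608). Without heat-exposed ovaries 2 and 4, 0 of 84 passed, 41 lay below 0 and the median was 0.00, against −0.14 with them. Hsp90aa1.2 then differed by −0.09, against 1.34 with all 4, hspb2 by 0.44 and hspa13 by −0.29. Other differences grew: hsp70l was at −0.64 (unadjusted p = 0.0521), against −0.05 with all 4, and hspb8 at 0.97 (unadjusted p = 0.00913, adjusted p = 0.753), against 0.66.

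The sexes differed far more than the temperatures. In control fish, 50 of 84 genes passed between testis and ovary, 18 higher and 32 lower in testis. Over all entries 29.6% were higher and 30.8% lower, so the number called was like that of the table as a whole. In 33 of 84 the groups did not overlap (39.3%, against 40.4% of all entries), 9 of them higher and 24 lower in testis. Differences here are testis minus ovary on the log2 scale, over 10 control testes and 4 control ovaries.

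The largest was that of dnajb13, the axoneme gene. Its lowest, median and highest signals were 11.55, 11.84 and 12.21 in control testes, and it had 6.90, 7.05, 6.59 and 6.17 in the 4 control ovaries. It was 36.3-fold higher in testis (5.18 ± 0.17 SE, adjusted p = 7e-13). Hspb2 had 10.17, 10.90 and 11.53 in control testes and 5.76 to 7.23 in control ovaries, a difference of 4.36 ± 0.29 (adjusted p = 2.78e-09). Of 15 muscle markers, 12 were higher in control testes (29.6% of all entries). Their list means were 8.50 to 11.53 in control testes and 7.62 to 8.10 in control ovaries. Also higher were 12 of 14 spermatogenic (1 lower), 7 of 8 testis somatic, 9 of 13 neural and 9 of 11 liver markers. In heat-exposed ovaries, where hspb2 was high in arrays 2 and 4, the muscle mean was 7.60 to 8.39. The part of any of these cells in the hspb2 result was not tested.

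Hsp90aa1.2 was higher in testis by 2.90 ± 0.18 (adjusted p = 1.3e-09), with 14.41, 14.69 and 14.97 in control testes and 11.20 to 12.16 in control ovaries. Its copy hsp90aa1.1 differed less, by 1.33 (adjusted p = 0.0223), and its ranges overlapped. Dnajc12, a cochaperone of the aromatic amino acid hydroxylases, was higher by 2.72, with 11.64, 11.97 and 12.32 in control testes and 9.19 to 9.57 in control ovaries. The rest of the 10 largest were hspb3 (2.28), dnaja (2.0), dnajc27 (1.70), hspb6 (1.58), hspa12b (1.47) and dnajc5b (1.46), all with an adjusted p at or below 0.00651. Hspb1 (1.21), hspb8 (0.59) and hsp70l (0.77) passed as well.

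On the other side, dnajc25 had 6.88, 7.52 and 7.96 in control testes and 10.30 to 11.24 in control ovaries, and was lower in testis by 3.39 on the log2 scale (written as −3.39 ± 0.20, adjusted p = 8.43e-10). Hspa13 followed at −2.98 ± 0.32, with 5.67, 6.64 and 7.89 in control testes and 9.53 to 9.73 in control ovaries. The next were the cysteine string protein relatives dnajc5gb (−2.87) and dnajc5ga (−2.39), dnajc1 (−2.26), dnaja1l (−2.09), dnajb6b (−2.03), an anti-aggregation J-domain protein, dnajc15 (−1.99) of the mitochondrial import motor, dnajc6 (−1.98), the auxilin that uncoats clathrin vesicles, and dnaja2l (−1.69). Within 1 family, dnajc5 copies thus differed in both directions, with dnajc5b higher in testis and dnajc5ga and dnajc5gb lower.

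By compartment, 8 genes with a chaperone or J domain that faces the ER lumen were grouped: hspa5, hspa13, hsp90b1, dnajb9, dnajb11, dnajc1, dnajc3 and dnajc10. The grouping was made after the values were seen, may not be complete and has no test of its own. Dnajc16, which it leaves out, differed by 0.40 (limma adjusted p = 0.167). It was above the control ovary mean in 9 of 10 control testes. Of the 8, 7 passed as lower in testis and 0 as higher, where 30.8% of all entries were lower, with differences of −0.43 for hspa5, −1.09 for hsp90b1 and −1.18 for dnajc3. Dnajb11 differed by −0.54 (adjusted p = 0.093). Other chaperone-system genes of the ER differed in both directions. The disulfide isomerase genes p4hb (−3.93) and pdia4 (−3.18), sdf2l1 (−3.0), the HSP70 relative hyou1 (−2.10) and the lectin chaperones canx (−0.99) and calr (−0.91) were lower in testis, and the collagen chaperone gene serpinh1a was higher (0.71, adjusted p = 0.0258). Of the 61 other chaperone-system entries, 15 were higher (29.6% of all entries) and 27 lower (30.8% of all entries) in testis. The HSP70 cochaperone gene bag4 (−3.49) and the prefoldin gene pfdn4 (−3.41) were also among the 10 largest. The extremes on the other side were hsf5, a germ cell heat shock factor in mammals, at 6.46, the small heat shock protein gene cryabb, an alpha crystallin, at 3.04, bag6l at 2.56 and the HSP90 activator gene ahsa1 at 2.19.

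Of 9 genes whose proteins work in mitochondria, also grouped after the values were seen and not tested as a group, 6 passed as lower in testis (30.8% of all entries) and 1 as higher. The lower ones were hspa9 (−1.64, adjusted p = 7.06e-07), dnaja3b (−1.33), dnajc11 (−0.63), hspd1 (−0.60, adjusted p = 0.00351), hspe1 (−0.42, adjusted p = 0.0387) and dnajc15, given above. Dnajc19, of the import motor, was higher (0.76), and dnaja3a (0.08) and dnajc28 (−0.13) did not pass. Counts by family are small and were not tested against the share over all entries (29.6% higher, 30.8% lower). Of 9 small heat shock proteins, 5 were higher and 0 lower. Of 12 HSP70 and HSP110 genes, 2 were higher and 7 lower, including hspa4a at −0.54. None of the 7 CCT subunits passed, with differences between −0.27 for cct3 and 0.21 for cct6a. Cct2 was at 0.03, cct5 at −0.11 and cct8 at 0.18. Hspa8 (−0.08), hsp90ab1 (0.26), dnajb1a (0.21) and dnajb1b (0.55) did not pass.

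**Figure D5:**
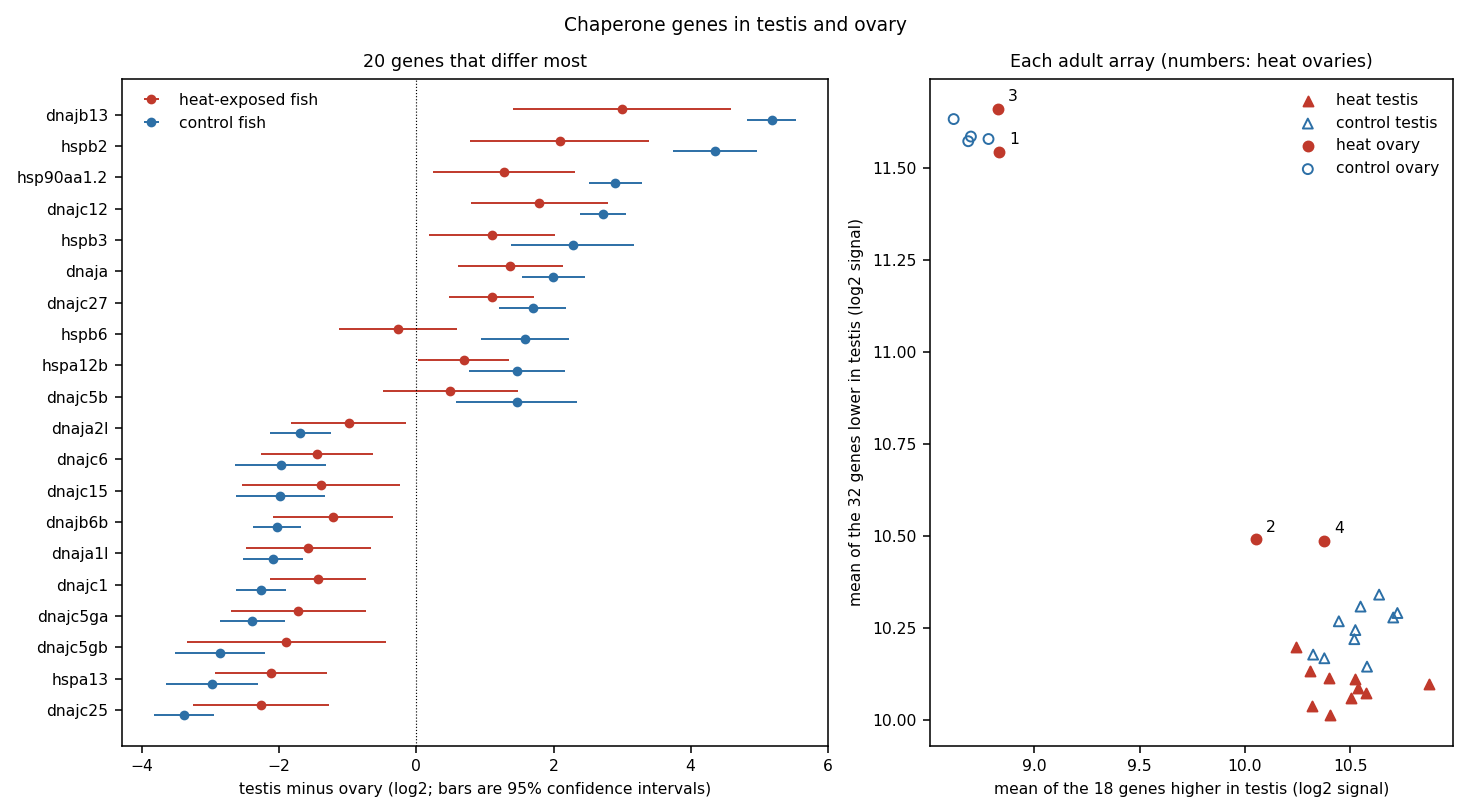
Left, testis minus ovary (log2) for the 20 genes with the largest differences that passed in control fish, with 95% confidence intervals, in heat-exposed fish (red) and control fish (blue). Right, for each adult array, the mean of the 18 genes higher in control testis (horizontal) and of the 32 lower in control testis (vertical), where heat-exposed ovaries 2 and 4 lie at 10.05 and 10.38 on the horizontal axis and ovaries 1 and 3 at 8.83 beside the control ovaries.

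In heat-exposed fish, 24 of 84 genes passed between testis and ovary, 8 higher (17% of all entries) and 16 lower (14% of all entries). Dnajb13 was higher by 3.0 ± 0.75 and hspb2 by 2.09 ± 0.61, while dnajc25 differed by −2.27 ± 0.47 and hspa13 by −2.12 ± 0.38. The others that passed as higher were dnajc12 (1.79), dnaja (1.37), dnajc27 (1.1), dnajb2 (0.98), hsp70l (0.89) and dnajb1b (0.64). Lower ones included dnajc5gb (−1.90), dnajc5ga (−1.72), dnaja1l (−1.57), dnajc6 (−1.45), dnajc1 (−1.43), hspa9 (−1.22), dnajb6b (−1.22), dnajc2 (−1.05), a J-domain protein of the ribosome, hsp90b1 (−0.91) and hspa4a (−0.87), with adjusted p from 0.0032 to 0.0456. Hsp90aa1.2 (1.27, adjusted p = 0.0589), hspd1 (−0.92, adjusted p = 0.0826) and hsp90ab1 (0.37, adjusted p = 0.0651) did not pass. Hspb6 differed by −0.26 (adjusted p = 0.656). Without heat-exposed ovaries 2 and 4, 44 of 84 passed, 16 higher and 28 lower. The share of all entries in that fit is not given here, so this count is not a result about chaperone genes in particular. Leaving out heat-exposed ovary 1 or 3 left 8 and 9 calls. Over all 31475 entries, the fits with 1 array left out called between 4386 and 12241. The number called thus varied over the whole table as well.

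The 18 genes higher and the 32 genes lower in control testis were chosen on the control gonads, so the levels of the control arrays are a description, and the heat comparison in ovaries shares those control arrays. In the heat-exposed arrays, the mean of the 18 was 10.24 to 10.88 in testes, and 8.83, 10.05, 8.83 and 10.38 in ovaries 1 to 4, with 10.32 to 10.72 in control testes and 8.62 to 8.78 in control ovaries. The mean of the 32 was 10.01 to 10.20 in heat-exposed testes and 11.54, 10.49, 11.66 and 10.49 in heat-exposed ovaries, with 10.14 to 10.34 in control testes and 11.57 to 11.63 in control ovaries. Heat-exposed ovaries 2 and 4 thus lay towards the testes in both groups of genes, and ovaries 1 and 3 lay near control ovaries. The 34 genes that did not pass between the sexes had means of 10.49, 10.40, 10.54 and 10.57 in heat-exposed ovaries and 10.46 to 10.68 in control ovaries.

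Juvenile trunks share no arrays with the gonads. In them, 16 of the 32 genes lower in testis lay below 0 after heat, with a median of 0.01, and 10 of the 18 genes higher in testis lay above 0, with a median of 0.04. The trunk differences of the ovary-biased chaperones were thus spread around 0. All 16 oocyte markers were lower in the same heat-exposed trunks (median −5.30). The mean signal of the 32 genes was 11.33 in control trunks, 11.32 in heat-exposed trunks and 11.59 in control ovaries. Upper quartiles per array were 10.9 to 10.95 in trunks and 10.64 to 10.72 in adults, so trunk and ovary levels cannot be compared directly. The part of oocytes in the trunk signal of these genes was not tested.

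Whether heat acted differently on testis and ovary was tested as the difference of the 2 heat effects over the 28 adult arrays. None of the 84 genes passed (0 of 84, against 1.21% of all entries). At an unadjusted p under 0.05, 2 of 84 were higher (10.9% of all entries) and 5 lower (10.3% of all entries). The smallest adjusted p was 0.0633, for hspb6, whose heat effect was −0.52 in testis and 1.32 in ovary (difference −1.85 ± 0.52). Hspb2 (−2.27, adjusted p = 0.0822), hsp90aa1.2 (−1.63, adjusted p = 0.0924), dnajb13 (−2.18, adjusted p = 0.12) and hspb8 (−0.75, adjusted p = 0.146) followed. Without heat-exposed ovaries 2 and 4 the smallest adjusted p was 0.289. Among the other chaperone-system genes, the HSP90 cochaperone gene cdc37l1 passed (1.23, adjusted p = 0.0461). Leaving out heat-exposed ovary 1 or 3 gave 5 and 6 calls among the 84, and leaving out any of the other 26 arrays gave 0. Over all 31475 entries, the fits with 1 array left out called between 48 and 4817, so the number called varied over the whole table as well.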

How the data were processed

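RNA from 46 zebrafish samples had been amplified, labelled with Cy3 and hybridised to single-colour NimbleGen expression arrays, per the labels' protocols. The authors deposited 1 table of processed values, normalized by RMA per the submitters' processing notes, which give no version. The deposited values ran from 3.76 to 15.89 and were taken as log2 signal. The base of the logarithm was inferred from this range. Upper quartiles per array were 10.64 to 10.72 in adults and 10.9 to 10.95 in trunks. The table holds no detection calls, slide or scan labels, so background and batch could not be tested, and the number of arrays limits the precision.

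Samples were grouped by temperature, tissue and age from the labels. Replicates are separate fish per the design text. For each comparison, limma 3.58.1 under R 4.3.3 fitted its own groups alone (lmFit, then eBayes, with tests of both directions). Benjamini-Hochberg adjustment ran over the 31475 entries, and an adjusted p under 0.05 was called. The difference of heat effects came from 1 model of the 28 adult arrays. In each comparison the text names the 10 called genes with the largest rise and the 10 with the largest fall, the 5 with the smallest p where none passed, a panel of 20 heat shock and chaperone genes where measured, and up to 10 called genes of the other chaperone-system list. The panel holds constitutive chaperones as well as heat-inducible ones. Further names were chosen after their values were seen. The members and gene lists were chosen with earlier results of these data known. Alternatives were array weights, an intensity trend, a model of all arrays, repeated quantile normalization, removal of entries below percentile 25, a replicate block, an oocyte covariate and omitted arrays. The fit was tested on simulated data.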

Additional observations from a re-analysis of the deposited data

Results flagged for a closer look

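Single arrays stood apart from the rest of their group by Dixon's criterion in 24 of 276 group and gene combinations, over 46 named genes. Chance gives about 1 in 20. Of the 24, 9 were heat-exposed testis 10. It was low for dnaja (11.16, the others 11.74 to 12.39), dnajb13 (11.48, the others 11.76 to 12.08), dnajb1a (10.01, the others 10.89 to 11.51), dnajc12 (10.78, the others 11.89 to 12.72), dnajc5gb (5.84, the others 8.62 to 9.64), hsp90aa1.2 (13.60, the others 14.34 to 14.63) and hspd1 (11.18, the others 13.07 to 13.76). It was high for dnajc5ga (9.77, the others 7.77 to 8.50) and hspe1 (10.57, the others 8.49 to 9.26), so the mitochondrial partners hspd1 and hspe1 moved in opposite directions in this testis. Heat-exposed testis 7 was high for dnajb2 (11.82, the others 11.12 to 11.48).

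Among control testes, dnajc18 was low in testis 10 (8.42, the others 9.06 to 9.69), hsp90ab1 was low in testis 8 (14.35, the others 14.64 to 14.79) and hspb1 was high in testis 5 (13.31, the others 11.15 to 12.22). Heat-exposed ovary 1 was low for dnajb1b (11.27, the others 11.68 to 11.75) and heat-exposed ovary 3 for hsp70 (10.28, the others 11.42 to 11.62). Control ovary 3 was low for dnajb2 (8.69, the others 10.22 to 10.37), and control ovary 4 was low for dnajb6b (12.59, the others 12.91 to 12.97) and high for hspa12b (8.09, the others 7.01 to 7.18).

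In heat-exposed trunks, dnajb6b (11.81, the others 12.05 to 12.29) and hspa13 (9.73, the others 10.21 to 10.76) were low in trunk 5, dnajc25 was low in trunk 3 (6.17, the others 6.75 to 7.39), and hspa9 was high in trunk 4 (13.43, the others 12.79 to 13.02). In control trunks, cct8 was low in trunk 8 (13.84, the others 14.12 to 14.23) and hsp90aa1.1 in trunk 1 (13.69, the others 14.22 to 14.34).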

How the results depend on the processing

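The trunk count of 6 genes became 3 without heat-exposed trunks 1, 2 and 10 and 0 with the oocyte marker mean as a covariate, and ranged from 3 to 8 when 1 trunk was left out. Over all entries, 14.5% passed in the fit reported, 9.1% without those trunks and 0.562% with the covariate. With 1 trunk left out, 3293 to 4919 of the 31475 entries passed. A model of all 46 arrays gave 1 gene in testis (hspa4a, adjusted p = 0.0315), 9 in ovary, 41 between heat-exposed testis and ovary, and 3 for the difference of heat effects, where the separate fits gave 0, 0, 24 and 0. Over all entries that model called 0.324% in testis and 15.5% in ovary, where the separate fits called 0.0635% and 0%. Its shares for the heat-exposed gonads and for the difference of heat effects are not given here. Leaving out heat-exposed ovaries 2 and 4 gave 44 between the heat-exposed gonads, also without that share. These counts are therefore not results about chaperone genes in particular. With 1 array left out, the counts were 0 in testis and 0 in ovary throughout, 43 to 50 between control gonads, 8 to 33 between heat-exposed gonads, and 0 to 6 for the difference of heat effects. Over all 31475 entries, these fits called 1 to 57 in testis, 0 to 5 in ovary and 17794 to 19005 between control gonads. They called 4386 to 12241 between heat-exposed gonads and 48 to 4817 for the difference of heat effects. Other settings gave 48 to 56 between control gonads (59.3% to 72.2% of all entries).

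Named genes changed sign 140 times over all settings, 0 of them called there or in the fits reported. In 129 the value moved by less than 1 SE, among them cct5 (−0.21), hspd1 (0.08) and hsp90ab1 (−0.05) in ovary without heat-exposed ovaries 2 and 4. The other 11 moved by more. In trunks these were hspb8 (0.23 without heat-exposed trunks 1, 2 and 10), hsp90b1 (−0.18) and hspa8 (−0.21, both with the covariate). Without heat-exposed ovaries 2 and 4 they were hsp90aa1.2 (−0.09) and dnaja1l (0.46) in ovary, cct5 (0.066) between heat-exposed gonads, and dnajb13 (0.18), hspa9 (−0.19), cct5 (0.18) and dnaja1l (−0.51) for the difference of heat effects. Dnajb1a was −0.027 between the sexes with both temperatures averaged. The cause was not tested.

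A replicate block gave 5 calls in trunk (10.2% of all entries), 0 in testis (0.00953% of all entries) and 0 in ovary (0% of all entries). Same-numbered samples correlated over 0.1 in 1 of 8 pairs of trunks, 2 of 10 of testes and 2 of 4 of ovaries. The numbers only follow the order of the samples within each group, so these checks cannot show whether samples were paired.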
